A study of Mus musculus with 10 samples.

Results

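Macrophages in differentiating stem cell cultures were followed through 40 genes chosen by name as markers of macrophages and of leukocytes at large: surface receptors, Fc receptors and their adapters, complement C1q chains, scavenger and lectin receptors, lysosomal and secreted products, integrins, cytoskeletal proteins and the transcription factor Spi1. A gene was represented by the probe set that the platform annotation assigned to its symbol alone and, where there were several, by the one with the highest mean over the arrays. All 40 had such a probe set, out of 18193 genes measured in this way. The rule used the names of the genes, and the list was drawn up with earlier results of these data known. Levels are log2 expression values summarised from each probe set by RMA, a method that corrects background, equalises the distributions of the arrays and summarises the probes. A difference of 1 is therefore a 2-fold difference.

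The samples were whole cultures of mouse embryonic stem cells (mESCs) of the C57BL/6 strain, taken at day 8, 17 or 24 of differentiation, with no sorting of cells named in the labels. At day 8 there was a control culture and a culture given keratinocyte growth factor (KGF), an epithelial growth factor. At days 17 and 24 there were a control culture and cultures given KGF, DCI, or KGF and DCI together. The labels do not spell DCI out. The title of the series names dexamethasone, a synthetic glucocorticoid, plus elevated cAMP, and DCI is taken here as that combination. Each of the 10 conditions had 1 array, so no error comes from replicate cultures. The standard errors and p-values below come from linear models over the arrays and measure only how far the arrays depart from the sum of the effects in the model. The threshold for a call was an adjusted p under 0.05 over all 18193 genes.

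Macrophages are phagocytes that arise early in embryonic blood formation and depend on signalling by colony-stimulating factor 1 through its receptor, encoded by Csf1r. The ETS factor PU.1, encoded by Spi1, is needed to form them and binds near many of their genes. Embryonic stem cells that differentiate as mixed aggregates commonly give rise to blood and macrophages beside other lineages. Glucocorticoids are known to change the gene expression of macrophages, and the scavenger receptor Cd163 is a classical induced gene. In bulk RNA, fewer cells of a type and less RNA of a gene per cell cannot be told apart, and this holds for every difference below.

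The arrays had 45101 probe sets, and the median of all genes lay between 6.52 and 6.76 on all of them. The day 8 control array stood apart in 3' to 5' controls. Its dap spike-in control, which reads labelling, had a 3' minus 5' difference of 5.34 against 1.49 to 3.0 on the other arrays, and its Actb control had 1.05 against 0.46 to 0.62. At day 17, the dap difference was 3.0 and 2.95 with DCI against 2.0 and 1.99 without it, and at day 24 it was 1.49 and 1.58 against 1.74 and 1.64. The Actb difference lay between 0.54 and 0.62 on the 4 DCI arrays and between 0.48 and 0.52 on the 4 arrays of the same days without DCI. With either control difference as a covariate, a setting chosen after seeing the data, the same count of 38 of the 40 genes fell with DCI as in the model without it.

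Most of the 40 genes were low at day 8 and high by day 17. Their median level was 4.59 in the control and 4.81 with KGF at day 8, 9.25 and 9.31 at day 17, and 9.25 and 8.86 at day 24. With DCI it was 7.22 alone and 6.92 with KGF at day 17, and 5.99 and 5.84 at day 24. The DCI cultures of day 24 were thus nearer to the day 8 cultures than to the untreated cultures of their own day.

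**Figure D1:**
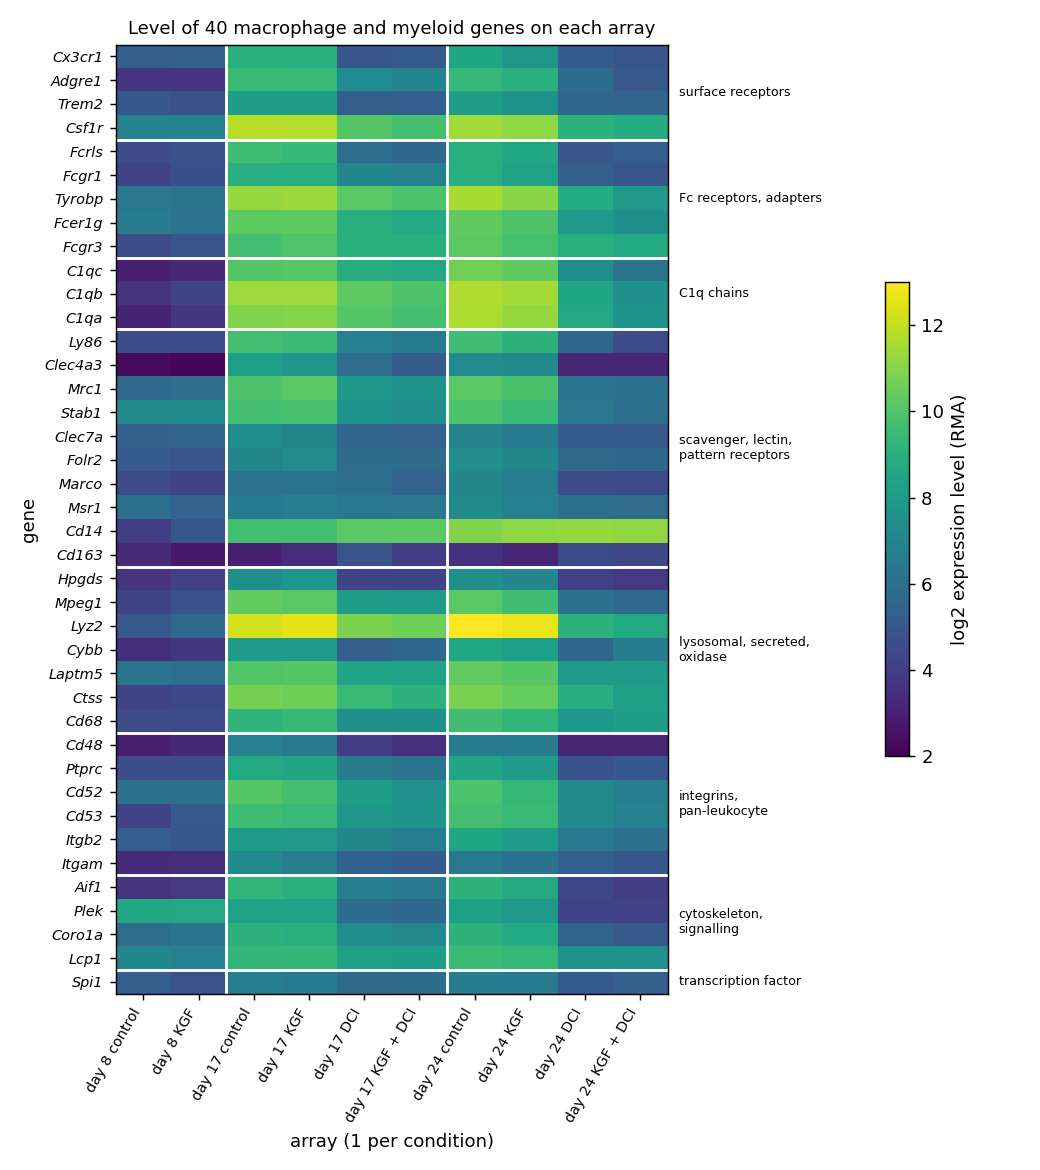
Level of each of the 40 genes (rows, grouped by role) on each of the 10 arrays (columns), as colour on the log2 RMA scale. The day 8 columns are dark for most genes, the control and KGF columns of days 17 and 24 are bright, and the DCI columns lie between, with Cd14, Cd163 and Plek as visible exceptions.

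From day 8 to day 17 without DCI, 38 of the 40 genes rose, where 19.5% of all genes did so, and 0 fell (19.3%). The median rise was 4.09 on the log2 scale. The gain was largest for C1qa, a chain of the complement recognition protein C1q, at 7.57 ± 0.20 (SE, adjusted p = 4.54e-08). From day 8 to day 24 again 38 rose (24.1% of all genes) and 1 fell (26.5%), with a median of 4.08. These fits rest on the 6 arrays without DCI and 2 residual degrees of freedom. Leaving out the day 8 control array, which stood apart, left 38 risen genes at day 17 and 38 at day 24. In 28 of the 40 genes both day 8 arrays lay below every later array, DCI arrays included. The share of all genes in this state was not counted, so the 28 has no background to be read against.

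The genes that did not rise were Plek and Cd163. Plek encodes pleckstrin, a kinase substrate of platelets and leukocytes. On the probe set used, it was already at 8.58 and 8.66 at day 8 and differed by -0.29 ± 0.13 (SE, adjusted p = 0.118) at day 17. Another Plek probe set went from 5.02 and 7.47 at day 8 to 6.90 and 7.0 at day 17 without DCI. A further one went from 5.32 and 5.73 to 5.17 and 5.01. The comparison of Plek with day 8 thus depended on the probe set. On the probe set used, Plek was the gene that fell by day 24 (-0.50 ± 0.13 (SE, adjusted p = 0.0109)). That call was lost without the day 8 KGF array or without the day 24 KGF array. Markers of megakaryocytes, which also hold pleckstrin, were among the genes that fell from day 8 to day 17, in 4 of 7 measured members with 1 higher, beside 19.3% lower and 19.5% higher over all genes. Itga2b, the platelet integrin chain, stood at 8.39 and 8.36 at day 8 and at 6.87 and 7.15 in the day 17 cultures without DCI. The summed linear level of the 7 megakaryocyte genes was 1261 and 1363 at day 8 and 1319 and 1626 at day 17 without DCI. Pf4, the brightest of the 7, weighs most in this sum and was the 1 that rose. It went from 9.46 and 9.57 at day 8 to 10.06 and 10.41 at day 17 without DCI. The part of the 7 genes in the Plek level was not tested. Cd163 stayed between 2.78 and 3.57 on the 6 arrays without DCI, near the bottom of the scale, where differences are compressed.

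With DCI, 38 of the 40 genes fell, where 8.09% of all genes fell, and 1 rose, where 7.27% rose. The median difference was -2.36 against -0.01 for all genes, and the range ran from -3.62 for Fcrls to 1.15 for Cd163. This estimate comes from all 10 arrays with day, KGF and DCI as additive terms and 5 residual degrees of freedom. In 38 genes (5.65% of all genes) all 4 DCI arrays lay below all 4 arrays of days 17 and 24 without DCI. In 1 gene, Cd163, they all lay above (5.05% of all genes), and in Cd14 the groups overlapped. Summed over the 40 genes, the linear level was 35686 and 36426 at day 17 without DCI against 13385 and 11421 with it, and 43154 and 34128 at day 24 against 8155 and 6722. In what follows, pairs of levels give the array without KGF first and the array with KGF second.

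Among the surface receptors that define the lineage, all 4 fell with DCI. Csf1r, the receptor for the growth factors Csf1 and Il34, rose from 6.94 and 6.98 at day 8 to 11.81 and 11.78 at day 17 without DCI and 10.05 and 9.75 with it, and was at 11.48 and 11.12 without and 9.08 and 8.80 with DCI at day 24. Adgre1, which encodes the F4/80 antigen used to recognise mouse macrophages, was at 3.68 and 3.71 at day 8, at 9.48 and 9.46 at day 17 and 9.38 and 9.02 at day 24 without DCI, and at 7.34 and 7.0 (day 17) and 5.90 and 5.07 (day 24) with it. The DCI difference was -2.13 ± 0.10 (SE, adjusted p = 1.16e-06) for Csf1r and -3.01 ± 0.25 (SE, adjusted p = 3e-05) for Adgre1. In both genes the DCI arrays lay below the other arrays of days 17 and 24 and above the day 8 arrays. Cx3cr1, the receptor for fractalkine, stood at 5.34 and 5.38 at day 8, at 9.01 and 8.98 at day 17 without DCI against 5.0 and 5.16 with it, and at 8.51 and 7.81 at day 24 against 5.21 and 4.95. Trem2, a lipid-binding receptor that signals through Tyrobp, rose from 5.02 and 4.74 at day 8 to 8.12 and 8.15 at day 17 without DCI and 5.35 and 5.28 with it, and was at 8.12 and 7.67 without and 5.66 and 5.59 with DCI at day 24. Both were already near their day 8 level on the DCI arrays of day 17, and the differences were -3.50 ± 0.19 (SE, adjusted p = 1.75e-06) and -2.55 ± 0.13 (SE, adjusted p = 1.54e-06). Another probe set of Trem2, at 3.64 to 3.94 on all arrays, gave -0.03, and the other Cx3cr1 probe set gave -1.34.

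The 5 Fc receptors and adapters fell as well. Fcrls, an Fc receptor-like scavenger protein, was at 4.58 and 4.74 at day 8, at 9.57 and 9.35 at day 17 and 8.89 and 8.59 at day 24 without DCI, and at 5.95 and 5.68 (day 17) and 5.0 and 5.28 (day 24) with it. Its difference of -3.62 ± 0.11 (SE, adjusted p = 4.04e-08) was the largest fall of the 40. Fcgr1, the high-affinity receptor for immunoglobulin G, stood at 4.26 and 4.69 at day 8, at 8.91 and 8.96 at day 17 without DCI against 7.10 and 6.83 with it, and at 8.96 and 8.33 at day 24 against 5.32 and 4.95, with a difference of -2.74 ± 0.28 (SE, adjusted p = 0.000105). Another Fcgr1 probe set gave -0.67, with -0.69 at day 17 and -0.65 at day 24. The adapters carry the ITAM signalling motif on which Fc receptors and Trem2 depend. Tyrobp, which encodes DAP12, rose from 6.40 and 6.25 at day 8 to 11.24 and 11.36 at day 17 without DCI and 10.19 and 9.89 with it, and was at 11.54 and 11.05 without and 8.79 and 7.93 with DCI at day 24. Fcer1g, the common gamma chain, was at 6.68 and 6.24 at day 8, at 10.26 and 10.28 at day 17 and 10.31 and 9.93 at day 24 without DCI, and at 8.95 and 8.72 (day 17) and 7.95 and 7.46 (day 24) with it. They fell by 2.10 ± 0.29 (SE) and 1.93 ± 0.17 (SE), less than the receptors Fcrls and Fcgr1, and both stayed above their day 8 values on every DCI array. The smallest fall of the group was that of the low-affinity receptor Fcgr3, at -1.04 ± 0.13 (SE, adjusted p = 0.000378), or 48.6% of its level without DCI.

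The 3 genes of complement C1q, the first component of the classical pathway, which tissue macrophages make in quantity, are consecutive protein-coding genes on mouse chromosome 4. C1qa stood at 3.07 and 3.72 at day 8, at 10.92 and 11.01 at day 17 without DCI against 10.09 and 9.77 with it, and at 11.63 and 11.24 at day 24 against 8.66 and 7.69. C1qb rose from 3.66 and 4.21 at day 8 to 11.39 and 11.39 at day 17 without DCI and 10.27 and 9.91 with it, and was at 11.71 and 11.49 without and 8.52 and 7.53 with DCI at day 24. C1qc was at 3.0 and 3.22 at day 8, at 10.05 and 10.13 at day 17 and 10.65 and 10.31 at day 24 without DCI, and at 8.86 and 8.64 (day 17) and 7.36 and 6.23 (day 24) with it. The chains followed each other closely, and in each of them the DCI arrays of day 17 lay much nearer to the arrays without DCI than those of day 24. The additive model gave -2.15 ± 0.40 (SE, adjusted p = 0.00451) for C1qa, -2.44 ± 0.40 (SE, adjusted p = 0.00211) for C1qb and -2.51 ± 0.40 (SE, adjusted p = 0.00193) for C1qc. In this model a difference between the days counts as spread. With a robust variance prior C1qa did not pass (adjusted p = 0.0517).

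The scavenger, lectin and pattern receptors were the most mixed role, with 8 of 10 lower and 1 higher. Ly86, or MD-1, which associates with the Toll-like receptor homologue Cd180, stood at 4.59 and 4.58 at day 8, at 9.72 and 9.52 at day 17 without DCI against 6.82 and 6.54 with it, and at 9.62 and 9.13 at day 24 against 5.72 and 4.55. Clec4a3, a C-type lectin receptor, rose from 2.38 and 2.20 at day 8 to 8.19 and 7.78 at day 17 without DCI and 5.92 and 5.18 with it, and was at 7.30 and 7.21 without and 3.18 and 3.19 with DCI at day 24. Their differences were -3.59 ± 0.25 (SE, adjusted p = 1.04e-05) and -3.25 ± 0.28 (SE, adjusted p = 3.98e-05), and Clec4a3 at day 24 with DCI was near the bottom of the scale. Mrc1, the mannose receptor CD206, was at 5.77 and 5.95 at day 8, at 9.91 and 10.20 at day 17 and 10.20 and 9.86 at day 24 without DCI, and at 7.87 and 7.67 (day 17) and 6.18 and 6.09 (day 24) with it. Stab1, stabilin-1, which takes up modified lipoproteins and is also made by sinusoidal endothelium, stood at 7.26 and 7.22 at day 8, at 9.71 and 9.82 at day 17 without DCI against 7.67 and 7.38 with it, and at 9.88 and 9.40 at day 24 against 6.38 and 6.0. They fell by 3.09 ± 0.27 (SE) and 2.85 ± 0.21 (SE). Stab1 was lower on both DCI arrays of day 24 than at day 8. The lectin Clec7a (dectin-1) and the folate receptor gene Folr2 fell by 1.64 ± 0.11 (SE) and 1.40 ± 0.11 (SE). On the probe sets used, the class A scavenger receptors Marco and Msr1 fell least of the role and had no array above 7.23. They fell by 1.38 ± 0.30 (SE) and 0.63 ± 0.17 (SE). Other Msr1 probe sets gave -0.53, -0.53 and -1.21, with the last at 7.85 in the day 24 control, and another Marco probe set gave -0.67. The call for the Msr1 probe set used (adjusted p = 0.0335) was lost without any of 6 arrays: the KGF and DCI arrays of day 17 and each of the 4 arrays of day 24. Its adjusted p then lay between 0.0514 and 0.134.

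Cd163 and Cd14 went the other way or did not move with the rest. Cd163, the receptor for haemoglobin and haptoglobin complexes, was at 3.35 and 2.78 at day 8, at 2.98 and 3.39 at day 17 and 3.57 and 3.12 at day 24 without DCI, and at 4.81 and 4.04 (day 17) and 4.49 and 4.34 (day 24) with it. The 4 DCI arrays were the highest of the 10, and the difference was 1.15 ± 0.17 (SE, adjusted p = 0.000982). Cd14, the co-receptor for bacterial lipopolysaccharide, was at 4.02 and 4.93 at day 8, at 9.65 and 9.68 at day 17 and 10.92 and 11.12 at day 24 without DCI, and at 10.20 and 10.24 (day 17) and 11.25 and 11.18 (day 24) with it. It rose with time in every condition and did not pass for DCI in the 10-array model (0.37 ± 0.14 (SE, adjusted p = 0.114)). It passed at 0.37 when the additive model was limited to the 8 arrays of days 17 and 24 (adjusted p = 0.0153), and without either day 8 array. Cd14 is also made by epithelial and stromal cells, and its source here was not tested.

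All 7 genes of lysosomal, secreted and oxidase products fell. Hpgds, the hematopoietic prostaglandin D synthase, stood at 3.69 and 4.13 at day 8, at 7.54 and 7.82 at day 17 without DCI against 4.25 and 4.22 with it, and at 7.44 and 7.10 at day 24 against 4.08 and 3.83. Mpeg1, the pore-forming perforin-2, rose from 4.26 and 4.75 at day 8 to 10.34 and 10.17 at day 17 without DCI and 8.15 and 8.03 with it, and was at 10.20 and 9.61 without and 6.14 and 5.76 with DCI at day 24. Their differences were -3.38 ± 0.14 (SE, adjusted p = 4.62e-07) and -3.06 ± 0.31 (SE, adjusted p = 0.000101), and the 4 DCI arrays of Hpgds, at 3.83 to 4.25, were close to its day 8 values. Lyz2, lysozyme M, which is also a product of alveolar type II cells, was at 5.07 and 5.78 at day 8, at 12.26 and 12.53 at day 17 and 13.03 and 12.69 at day 24 without DCI, and at 10.82 and 10.57 (day 17) and 9.10 and 8.68 (day 24) with it. It fell by 2.83 ± 0.38 (SE), and its DCI arrays stayed well above the day 8 arrays. Cybb, the catalytic subunit of the phagocyte NADPH oxidase, stood at 3.45 and 3.77 at day 8, at 8.02 and 7.89 at day 17 without DCI against 5.34 and 5.73 with it, and at 8.57 and 8.23 at day 24 against 5.60 and 6.63, with a difference of -2.35 ± 0.18 (SE, adjusted p = 2.01e-05). The culture with KGF and DCI at day 24 was 1.03 above the culture with DCI alone in Cybb, the largest such rise of the 40. The other 3 genes, Laptm5, Ctss and Cd68, fell by 1.57 to 1.94. Of 4 other Laptm5 probe sets, 3 were also called lower, and 1 stood at 0.11 and did not pass.

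The 6 integrins and pan-leukocyte surface proteins all fell. Cd48, an adhesion protein of the SLAM family, rose from 2.92 and 3.24 at day 8 to 6.80 and 6.48 at day 17 without DCI and 4.03 and 3.53 with it, and was at 6.66 and 6.51 without and 3.16 and 3.19 with DCI at day 24. Ptprc, the leukocyte common antigen CD45, was at 4.58 and 4.65 at day 8, at 8.67 and 8.53 at day 17 and 8.45 and 8.09 at day 24 without DCI, and at 6.68 and 6.29 (day 17) and 4.78 and 5.03 (day 24) with it. These differed by -3.14 ± 0.16 (SE, adjusted p = 1.47e-06) and -2.74 ± 0.23 (SE, adjusted p = 2.54e-05), and another, dim Ptprc probe set gave -0.27 and did not pass. Cd52, a small surface glycoprotein, stood at 6.09 and 6.05 at day 8, at 10.11 and 9.76 at day 17 without DCI against 8.12 and 7.56 with it, and at 9.87 and 9.34 at day 24 against 7.20 and 6.75. Cd53, a leukocyte tetraspanin, rose from 4.26 and 5.11 at day 8 to 9.58 and 9.41 at day 17 without DCI and 7.82 and 7.69 with it, and was at 9.74 and 9.41 without and 7.28 and 6.86 with DCI at day 24. They fell by 2.36 ± 0.12 (SE) and 2.12 ± 0.21 (SE) without reaching their day 8 level. The chains of the integrin Mac-1, Itgam and Itgb2, fell by 1.38 ± 0.14 (SE) and 1.54 ± 0.17 (SE).

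The 4 cytoskeletal and signalling genes fell. Aif1, whose product Iba1 binds actin and is a common histological marker of macrophages, was at 3.64 and 3.83 at day 8, at 9.25 and 9.0 at day 17 and 9.09 and 8.64 at day 24 without DCI, and at 6.76 and 6.46 (day 17) and 4.37 and 3.98 (day 24) with it. Plek stood at 8.58 and 8.66 at day 8, at 8.35 and 8.32 at day 17 without DCI against 5.89 and 5.68 with it, and at 8.31 and 7.94 at day 24 against 4.23 and 4.15. They fell by 3.60 ± 0.35 (SE) and 3.24 ± 0.23 (SE), and Plek with DCI lay below its day 8 level on both days. Coro1a, a leukocyte coronin, rose from 5.95 and 6.26 at day 8 to 9.08 and 8.93 at day 17 without DCI and 7.40 and 7.16 with it, and was at 9.11 and 8.71 without and 5.52 and 5.06 with DCI at day 24. Lcp1, the actin-bundling L-plastin, was at 7.15 and 6.86 at day 8, at 9.25 and 9.27 at day 17 and 9.51 and 9.33 at day 24 without DCI, and at 8.30 and 8.11 (day 17) and 7.62 and 7.63 (day 24) with it. Their differences were -2.67 ± 0.32 (SE, adjusted p = 0.000278) and -1.43 ± 0.13 (SE, adjusted p = 6.15e-05). Another Coro1a probe set also fell, by 2.52, and one near the bottom of the scale gave -0.14 and did not pass.

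Spi1, the only transcription factor of the 40, stood at 5.32 and 4.86 at day 8, at 6.76 and 6.58 at day 17 without DCI against 5.79 and 5.87 with it, and at 6.68 and 6.48 at day 24 against 5.10 and 5.37. It fell by 1.09 ± 0.15 (SE), to 46.8% of its level without DCI, and its DCI arrays did not overlap the others. On the DCI arrays of day 17 it stood above both day 8 values, and on those of day 24 it was close to them.

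**Figure D2:**
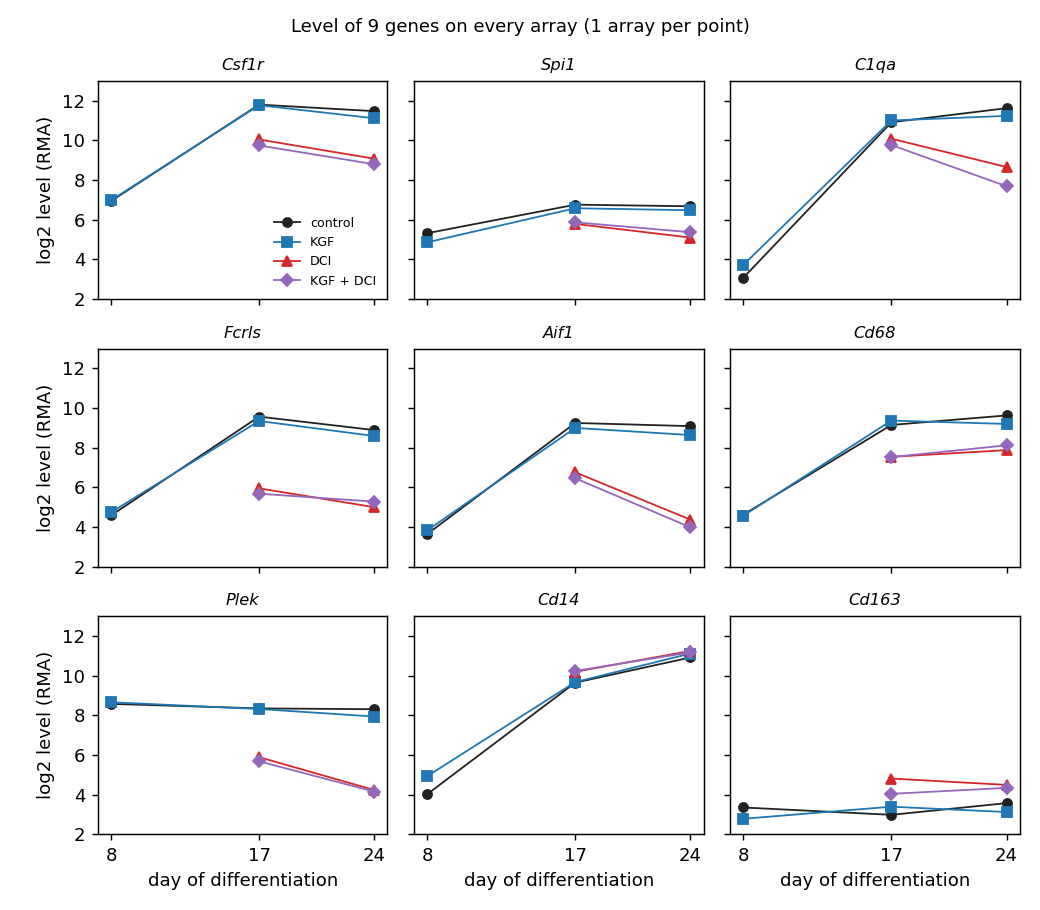
Log2 RMA level against day of differentiation for 9 genes, with 1 array per point and lines joining arrays of the same treatment. Csf1r, Spi1, C1qa, Fcrls, Aif1, Cd68 and Plek lie lower with DCI (triangles and diamonds) than without it, Cd163 lies higher, and Cd14 overlaps.

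The fall with DCI passed as larger at day 24 than at day 17 in 23 of the 40 genes. The DCI difference at day 24 minus that at day 17 lay below 0 in 32 of the 40, and its median over all genes was -0.01. Cd14 and Cd163, which lay higher with DCI, were among these 32. At day 17, 36 genes were lower with DCI (4.01% of all genes) and 2 higher, Cd14 and Cd163 (5.63%), with a median of -1.72. At day 24, 38 were lower (11.4%) and 1 higher (7.99%), with a median of -2.78. Marco and Msr1 passed at day 24 and not at day 17, where their adjusted p was 0.104 and 0.431. The higher call of day 24, Cd163, was lost without the KGF array, the DCI array or the KGF and DCI array of that day. Of the 2 higher calls of day 17, 1 was lost without the control array or the DCI array of that day. The difference between the days, tested as an interaction on the 8 arrays with 3 residual degrees of freedom, passed in 23 genes as a larger fall at day 24 (1.97% of all genes) and in 0 the other way (0.533%, and 1 gene without the day 24 control array). The median interaction was -0.78. The count of 23 became 13 without the day 17 DCI array, 14 without the day 17 KGF and DCI array, and 10 with a variance prior that has no mean trend. The dap control difference given above was also higher on the DCI arrays of day 17 than on those of day 24, and its part in the interaction was not tested.

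All 3 C1q chains and all 4 cytoskeletal genes were among the 23. At day 17, DCI left C1qa at 48.8%, C1qb at 40.6% and C1qc at 39.5% of the level without DCI. At day 24 it left 10.4%, 8.39% and 7.79%. The interaction was -2.34 ± 0.30 (SE, adjusted p = 0.00433) for C1qc, the largest of the 40. Lyz2 went from 30.9% to 6.41% and Aif1 from 17.5% to 3.87%, the lowest remaining share of any of the genes. Marco went from 71.5%, which did not pass, to 20.6%.

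Another set of genes was picked because their interaction lay above 0. Their fall with DCI was as large at day 17 as at day 24, as far as these arrays show. Fcrls was at 7.98% of its level without DCI at day 17 and at 8.24% at day 24, and its interaction was 0.05 ± 0.20 (SE, adjusted p = 0.945). Hpgds was at 9.21% and 10.1%, Cx3cr1 at 6.62% and 11.9%, and Trem2 at 14.2% and 20.7%. Clec7a stood at 30.9% and 33.2%, Cybb at 18.7% and 20.6%, Cd68 at 30.3% and 37.5%, and Itgam at 31.9% and 46.6%. None of these genes passed the interaction test, and the largest positive value was that of Cx3cr1 (0.84 ± 0.26 (SE, adjusted p = 0.139)). That a value did not pass does not show equal effects, since the median standard error of the interaction was 0.19. With DCI, Hpgds, Cx3cr1, Trem2 and Clec7a were already near their day 8 level at day 17. Without DCI, Cx3cr1 (-0.83), Fcrls (-0.72), Itgam (-0.68) and Clec7a (-0.47) were called lower at day 24 than at day 17. Of the rest none was called, with Hpgds and Trem2 below 0 and Cybb and Cd68 above it. The part of these levels in the interaction was not tested.

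**Figure D3:**
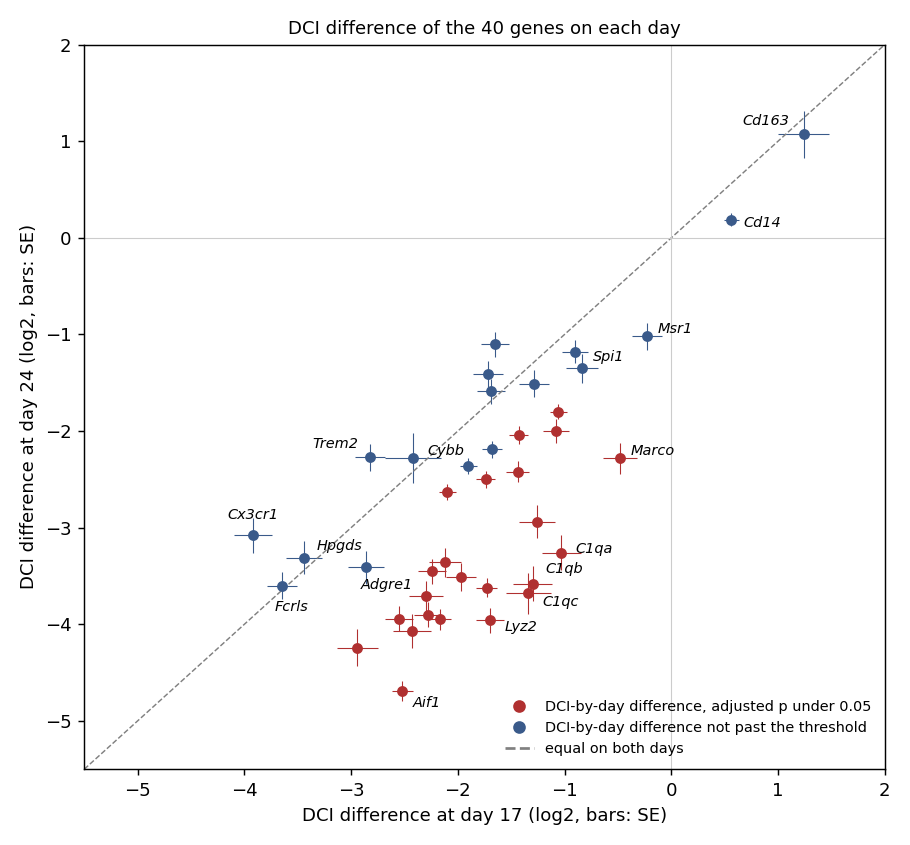
DCI difference at day 24 against that at day 17 for the 40 genes (log2, bars are standard errors of the 8-array model), with the dashed line marking equal differences. The 23 genes whose interaction passed lie below the line, while Fcrls, Hpgds, Cx3cr1, Trem2 and Cybb lie on or above it.

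The same contrast can be read as change over time. Without DCI, 8 genes fell from day 17 to day 24 (15.8% of all genes) and 3 rose (11.8%), with a median of -0.08. The 3 that rose were Cd14, Lyz2 and Marco. These counts are close to the shares of all genes and depended on single arrays, with 3 lower without the day 24 KGF array, 4 without the day 17 KGF array and 5 without the day 24 control array. The higher calls became 1 without either control array, 7 without the day 17 KGF array and 5 without either DCI array of day 24. Centring the arrays on housekeeping genes gave 20 lower and 1 higher. With DCI, 28 genes fell between the same days (22.1% of all genes) and 2 rose, Cd14 and Cd68 (12%), with a median of -0.77. The rise of Cd14 or Cd68 was lost, leaving 1, without the day 17 DCI array or either KGF and DCI array. Aif1 fell by 2.43 and Clec4a3 by 2.37 between the days with DCI, against -0.26 and -0.73 without it. By day 24, both DCI arrays were at or below the higher day 8 array in 7 genes: Cd48, Clec7a, Coro1a, Cx3cr1, Hpgds, Plek and Stab1. Plek was already high at day 8 on the probe set used. The share of all genes in this state was not counted, so the 7 has no background either.

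KGF changed none of the 40 genes past the threshold. Over all 10 arrays limma called 0 of them, as it called 0.0055% of all genes (1 gene). At an unadjusted p under 0.05 stood 1 of the 40, beside 1466 of all 18193 genes. On the 8 arrays of days 17 and 24 it again called 0, against 0.357% of all genes, with a smallest adjusted p of 0.151. There 4 of the 40 and 1559 of all 18193 genes stood at an unadjusted p under 0.05. The median KGF difference on those arrays was -0.24, with a median standard error of 0.18. The KGF by DCI interaction and the KGF by day interaction each called 0 of the 40 and 0% of all genes. In each, 1 of the 40 stood at an unadjusted p under 0.05, beside 267 and 932 of all 18193 genes. No alternative setting called any of the 40 for KGF or its interactions.

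Single pairs of arrays differed by day, without a test. The KGF array lay below the control in 16 of the 40 genes at day 8 (56.0% of all genes), in 21 at day 17 (49.4%) and in 39 at day 24 (45.9%). The median at day 24 was -0.37 and the lowest value was -0.70 for Cx3cr1. The gene above the control was Cd14. Added to DCI, KGF lay below DCI alone in 35 genes at day 17 (51.2% of all genes) and in 31 at day 24 (49.2%). The lowest values were those of Ly86 (-1.16) and C1qc (-1.14) at day 24.

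**Figure D4:**
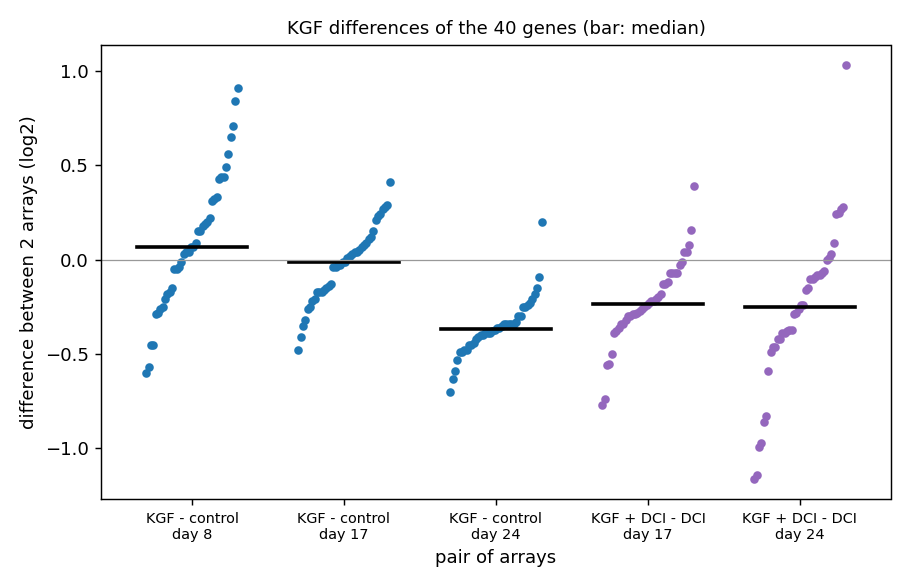
Log2 difference of each of the 40 genes between an array with KGF and the matched array without it, for 5 pairs of single arrays, sorted within each pair, with the median as a bar. The day 24 pair without DCI lies almost wholly below 0 (39 of 40 genes), the day 8 pair does not (16 of 40).

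The cultures that received both treatments, which the title of the series names together, can be set against the control of the same day only as 1 array against 1. At day 17, 34 of the 40 genes were at least 2-fold lower (1.17% of all genes) and 1 at least 2-fold higher (1.76%), with a median of -1.91. At day 24, 38 were at least 2-fold lower (2.56%) and 0 higher (2.2%), with a median of -3.27. The lowest value was -5.11 for Aif1 at day 24. The gene that was 2-fold higher at day 17 was Cd163, at 1.06.

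Across the 8 arrays of days 17 and 24 the genes moved as a block. Each gene was set against the median of the other members, and Pearson's r lay between 0.83 (Cybb) and 1.00 for 38 of them. It was -0.52 for Cd14 and -0.84 for Cd163. These are descriptions over 8 arrays that fall into 2 levels by DCI, so they mostly restate the DCI difference.

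Since the genes moved together, the sequence before their starts was examined for the letters of 3 motifs in the RefSeq promoter table of assembly GRCm38.p6, which held 31 of the 40 genes. Each window was the 250 bases before the start, read on both strands. GAGGAA, the core bound by PU.1, was present in 20 of 31 (64.5%), where 25.9% of 27025 genes held it. ACANNNTGT, a glucocorticoid receptor palindrome, was present in 3 of 31 (9.68%) against 6.76% of all genes, in Ctss, Fcgr3 and Lyz2. TGACGTCA, the full cAMP response element, was present in 0 of 31 against 1.77%. A match of the PU.1 core overlapped a match of another motif in 0 of the windows. Matches are descriptions of letters and not sites of binding, which these arrays do not measure.

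The last 150 bases before the start are shown for 6 genes on which the results turn: Itgam, with 2 PU.1 core matches at -84 and -15 from the start, Aif1, C1qb, Fcgr1 and Mrc1, which fell with DCI and hold 1 match each in these bases, and Cd163, which rose and holds none. Over the 250 bases Mrc1 held 3 matches, the most of the 31 genes, and Itgam 2. Capitals mark GAGGAA or its reverse complement, and each sequence runs 5′ to 3′ on the strand of the gene.
Itgam (chr7:128062490-128062639, + strand, GRCm38.p6): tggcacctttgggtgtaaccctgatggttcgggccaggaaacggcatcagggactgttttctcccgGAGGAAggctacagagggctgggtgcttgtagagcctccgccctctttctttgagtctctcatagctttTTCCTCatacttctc
Aif1 (chr17:35176053-35176202, - strand, GRCm38.p6): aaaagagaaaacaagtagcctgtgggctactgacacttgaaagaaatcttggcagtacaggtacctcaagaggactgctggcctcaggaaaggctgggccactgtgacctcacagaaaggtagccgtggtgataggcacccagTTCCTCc
C1qb (chr4:136886201-136886350, - strand, GRCm38.p6): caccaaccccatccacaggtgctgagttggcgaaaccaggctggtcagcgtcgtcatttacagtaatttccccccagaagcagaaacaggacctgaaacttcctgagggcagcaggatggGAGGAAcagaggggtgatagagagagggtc
Fcgr1 (chr3:96293970-96294119, - strand, GRCm38.p6): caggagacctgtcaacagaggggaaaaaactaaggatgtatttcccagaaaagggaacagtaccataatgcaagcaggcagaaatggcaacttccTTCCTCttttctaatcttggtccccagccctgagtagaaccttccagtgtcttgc
Mrc1 (chr2:14229264-14229413, + strand, GRCm38.p6): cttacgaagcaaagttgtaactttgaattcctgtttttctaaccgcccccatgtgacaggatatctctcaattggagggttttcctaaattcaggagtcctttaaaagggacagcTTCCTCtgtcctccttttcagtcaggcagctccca
Cd163 (chr6:124304501-124304650, + strand, GRCm38.p6): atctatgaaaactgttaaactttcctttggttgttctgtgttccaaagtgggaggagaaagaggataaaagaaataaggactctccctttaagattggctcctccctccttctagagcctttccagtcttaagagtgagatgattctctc

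In Aif1 the match begins 7 bases before the start (-7), and in C1qb, Fcgr1 and Mrc1 it begins at -30, -55 and -35. The 20 members with a match in the 250 bases had DCI differences from -3.62 (Fcrls) to -1.04 (Fcgr3), with a median of -2.53. The 11 without one ran from -3.59 (Ly86) to 1.15 (Cd163), with a median of -2.67.

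Genes of the same biology outside the 40 also fell with DCI. These lists were written with earlier results of these data known and are given as counts. Over the 10 arrays 8.09% of all genes fell and 7.27% rose. Of 36 other macrophage genes, 28 fell with DCI in that model and 0 rose, with a median of -1.33. At day 17 by itself 23 fell (4.01% of all genes) and 3 rose (5.63%): Lyve1 by 1.42, Rgs1 by 0.93 and Clec4d by 0.82. At day 24, 29 fell (11.4%) and 0 rose (7.99%), and Lyve1 differed by -1.58. Over the 10 arrays Gpr34, a lysophospholipid receptor of macrophages and microglia, fell most, with a difference of -3.71 ± 0.10 (SE, adjusted p = 2.25e-08). It went from 6.19 and 5.99 at day 17 without DCI to 2.43 and 2.43 with it. Ms4a7 differed by -2.96, the anaphylatoxin receptor gene C3ar1 by -2.79 and Cd300a by -2.56. Of 19 genes of leukocyte signalling and the NADPH oxidase, 18 fell and 0 rose, with a median of -1.24, among them the GTPase gene Rac2 (-2.55), the oxidase subunit gene Ncf1 (-2.44), Nckap1l (-2.03) and Dock2 (-1.94).

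Regulators of the lineage had smaller medians. Of 12 myeloid transcription factors 6 fell and 0 rose, with a median of -0.42. Ikzf1, which encodes Ikaros, differed by -1.93, Tfec by -1.32, Irf5 by -0.87 and Irf8 by -0.77. Cebpb stood at 0.10 and Runx1 at -0.12, and neither passed. Of 7 colony-stimulating factors and receptors 4 fell and 0 rose. Csf1, the main ligand of Csf1r, stood at 8.71 and 8.50 at day 17 without DCI and at 7.96 and 7.83 with it, at 8.82 and 8.72 at day 24 against 8.28 and 8.13, a difference of -0.64 ± 0.07 (SE, adjusted p = 0.000114). Its DCI arrays lay below the others. The other ligand, Il34, stood at -0.11 and did not pass, and the receptor chain genes Csf2rb, Csf2ra and Csf3r differed by -1.41, -0.79 and -0.79. Of 19 lysosomal genes 14 fell and 1 rose, with a median of -0.40, and Ctsc, encoding cathepsin C, fell most, by 1.59.

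Lists of other blood cells differed in how many of their genes were called for DCI over the 10 arrays, where 8.09% of all genes were lower and 7.27% higher. Of 7 monocyte genes 3 fell and 1 rose: F13a1, a coagulation factor chain, differed by -1.58, and Plac8 by 1.12. Of 10 neutrophil genes 0 fell and 3 rose, with S100a8 at 1.58. Of 6 microglial genes 2 fell and 2 rose, with P2ry12 at -2.05 and Tmem119 at 1.09. Tmem119 was already at 8.56 and 8.62 at day 8. Which cells made the RNA of the genes in these lists was not tested. Of 10 T and NK cell genes 0 passed in either direction, and their summed linear level lay between 148 and 192 on all 10 arrays, which is low. Mast cell genes had 1 of 9 lower, B cell genes 1 of 6 lower (Cd79b, at -1.26), and dendritic cell and class II genes 4 of 10 lower, with Cd74 at -1.21. Of 9 osteoclast genes 1 fell and 2 rose, with Mmp9 at 1.89. Neither 7 megakaryocyte genes nor 8 erythroid genes had any call for DCI over the 10 arrays. The summed linear level of the erythroid genes was 31969 and 31189 at day 8. It lay between 217 and 388 on the arrays of days 17 and 24, with or without DCI, which is low. Among 8 blood progenitor genes 3 fell and 2 rose, with Lyl1 at -2.02, Lmo2 at -1.83 and Tal1 at -0.74. In the model by day, 2 megakaryocyte genes were higher at day 17 (5.63% of all genes) and 1 was lower at day 24 (11.4%). Pf4 stood at 1.22 at day 17 and at -0.99 at day 24, and Itgb3 at 0.73 at day 17.

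Markers of other lineages moved with DCI in the same arrays. Among all genes, 8.09% fell and 7.27% rose over the 10 arrays. Of 10 epithelial genes 6 rose and 0 fell, with a median of 0.37, and their summed linear level was 10910 to 17881 on the arrays of days 17 and 24 without DCI and 13759 to 24369 with it. Of 10 fibroblast and mesenchymal genes 3 rose and 0 fell, with sums of 43807 to 50903 and 46453 to 50450. Of 10 endothelial genes 1 fell over all arrays, but 7 fell at day 24 (11.4% of all genes). The endothelial sum at day 24 was 1327 and 1374 without DCI and 892 and 822 with it. Of 11 genes known to be induced by glucocorticoids in macrophages 7 rose and 0 fell, with Fkbp5 at 1.75, Tsc22d3 at 1.45 and Per1 at 1.29. Of 8 pluripotency genes 1 rose, Klf4, and 0 fell. The part of these changes in the fall of the 40 genes was not tested.

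**Figure D5:**
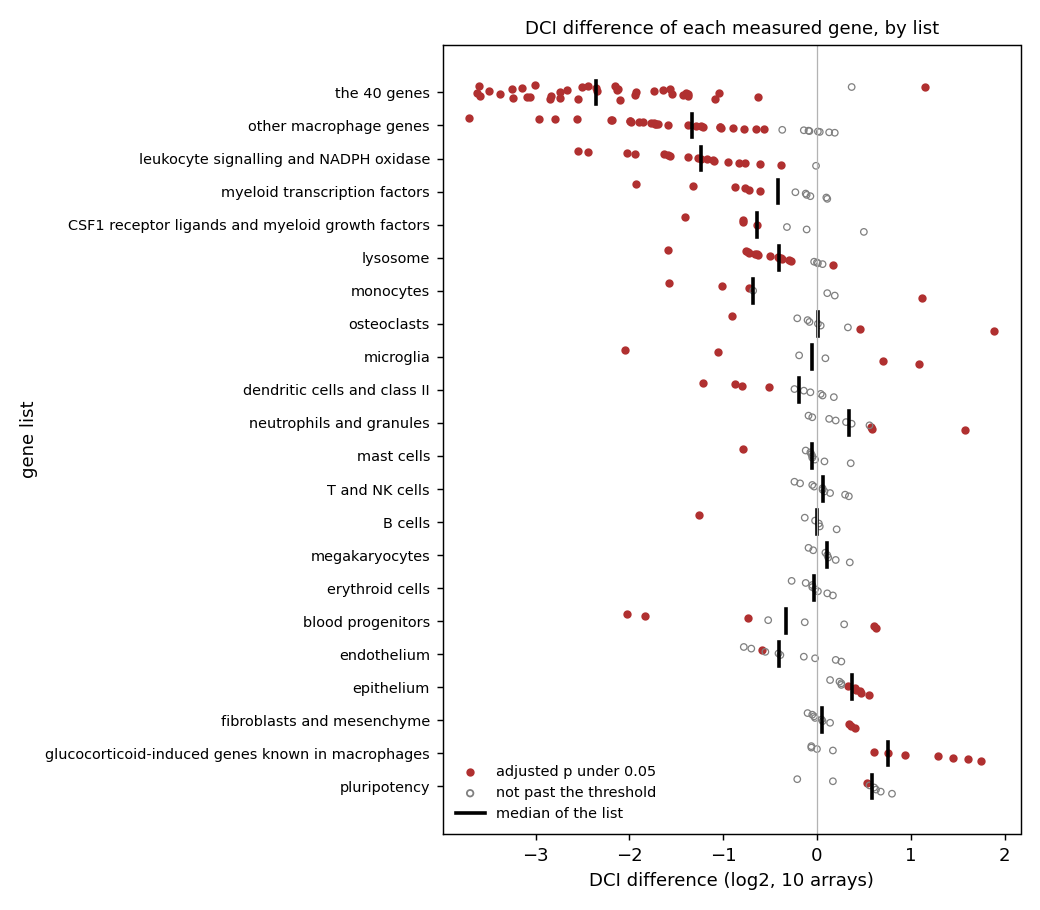
DCI difference (log2, 10-array model) of every measured gene of the 40 and of the other lists except housekeeping genes, with filled points past an adjusted p of 0.05, open points not past it, and a bar at the median of each list. The medians of the 40 genes, the other macrophage genes and the leukocyte signalling genes lie to the left of 0, with Cd163 and Cd14 of the 40 to the right, the T and NK cell and erythroid lists lie around 0, and the median of the glucocorticoid-induced list lies to the right.

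Other probe sets bear on how large the falls were. For 14 of the 40 genes the arrays carried more than 1 probe set of the gene alone, 24 in addition to those used. Of these 24, 23 lay below 0 for DCI and 20 were called lower. The change was under 0.5 times that of the probe set used, or of opposite sign, in 10 of them, mostly dim probe sets. The other probe sets of Csf1r gave -2.07 and -1.42, against -2.13, and the other C1qb probe sets gave -2.16 and -2.41 against -2.44. The Plek probe sets disagreed in size, from -0.71 to -3.24.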

How the data were processed

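The measurements were expression levels from 10 arrays, 1 for each condition. The authors deposited log2 values for 45101 probe sets, which the submitters' processing notes credit to RMA. Whether the arrays were normalised as a single batch is not given in the sources used here. Since RMA equalises the distributions of the arrays, each difference is relative to the other genes, and low values are compressed. The number of arrays limits the precision.

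Gene names came from the platform annotation, in which 34945 probe sets carried 1 symbol, 932 more than 1 and 9160 none, beside 64 controls. Those with 1 symbol stood for 18193 genes. Linear models were fitted to all of them with limma 3.58.1 in R 4.3.3, with eBayes variances that follow a mean trend and Benjamini-Hochberg adjustment over all genes. The models were an additive one over 10 arrays (5 residual degrees of freedom) or over 8 (4), interaction models over the 8 arrays of days 17 and 24 (3), and a model of the 6 arrays without DCI (2). The fits were tested on simulated data. Each error printed is a moderated standard error.

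The 40 genes, their roles, the 22 other lists (240 of 264 genes measured) and the tests were chosen with earlier results of these data known. Levels on every array are given for up to 4 genes of each role with the largest DCI difference and for genes called against the majority. Cd14, which was not called, was added. For other lists, up to 4 called genes with the largest difference were taken, and others were named after their values were seen. Alternatives were other variance priors, a filter that dropped 40% of genes by mean level, averaged probe sets, a repeated quantile normalisation, centring on housekeeping genes, other thresholds and models, and leaving out each array. Promoter letters came from RefSeq (GRCm38.p6), which held 31 of the 40. Figures were drawn with matplotlib in Python.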

Additional observations from a re-analysis of the deposited data

Results flagged for a closer look

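In 23 of the 40 genes the DCI difference at day 24 differed from that at day 17 by the interaction test of the 8-array model. The interaction, day 24 minus day 17, was -2.22 for C1qa, -2.28 for C1qb and -2.34 for C1qc. Among cytoskeletal genes it was -2.17 for Aif1, -1.89 for Coro1a, -1.39 for Plek and -0.74 for Lcp1. Of the lysosomal and secreted products, Lyz2 stood at -2.27, Mpeg1 at -1.79 and Ctss at -0.61. Receptors of the scavenger and lectin classes were at -1.80 for Marco, -1.64 for Clec4a3, -1.61 for Mrc1, -1.30 for Ly86 and -1.22 for Stab1. Tyrobp was at -1.68, Fcgr1 at -1.54 on the probe set used, Adgre1 at -1.41 and Fcer1g at -0.98. Of the integrins and pan-leukocyte genes, Ptprc was at -1.25, Itgb2 at -0.92, Cd53 at -0.76 and Cd52 at -0.54. The cause was not tested.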

How the results depend on the processing

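The fall of the 40 genes with DCI kept its direction under the alternatives run. The count of 38 was 37 to 38 when each array was left out in turn, 33 without the lowest 40% of genes, which tests fewer of the 40, and 37 with a robust prior, a 2-fold minimum or arrays centred on housekeeping genes, which moved the median of all genes from -0.01 to 0.23. No paired analysis was possible because the labels carry no replicate numbers and each condition had 1 array. Counts of few genes were the ones that moved. With DCI, 1 gene higher became 0 with that filter, which removes Cd163, and 2 with housekeeping centring, on the 8 arrays of days 17 and 24 alone, or with the dap or Actb control difference as a covariate (chosen after seeing the data). It was 1 to 2 with arrays left out. At day 17, 2 higher became 1 with that filter or with a 2-fold minimum (1 to 2 with arrays left out), and 36 lower became 32 with the filter or a robust prior and 34 with the 2-fold minimum (33 to 36). At day 24, 1 higher became 0 with the filter and 2 with housekeeping centring or an adjusted p under 0.10 (0 to 1 with arrays left out), and 38 were lower in all but the filter (33). The interaction count of 23 became 10 with no mean trend and 13 to 23 with arrays left out, with 0 to 1 the other way. From day 17 to day 24 without DCI, 8 lower became 20 with housekeeping centring and 0 with a 2-fold minimum (3 to 9 with arrays left out). There 3 higher became 1 with housekeeping centring or the 2-fold minimum and 5 at an adjusted p under 0.10 (1 to 7). With DCI, 28 lower became 18 with the 2-fold minimum (24 to 29), and 2 higher became 1 with no mean trend, the mean of probe sets or housekeeping centring, and 0 with the 2-fold minimum (1 to 3). From day 8 to day 17, 0 lower became 2 with housekeeping centring, and 38 higher became 33 with the filter and 37 with housekeeping centring or the 2-fold minimum (37 to 38 with arrays left out). From day 8 to day 24, 1 lower became 0 with the mean of probe sets, the repeated normalisation or the 2-fold minimum and 2 with housekeeping centring (0 to 1), and 38 higher became 33 with the filter and 36 with housekeeping centring. KGF and its interactions stayed at 0. The Laptm5 probe set that reversed stood at 0.11. The causes were not tested.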
